A study of Mus musculus with 6 samples.

Results

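Sparcl1, Camk4, Lgals1, Ttc23l, Adamts1, Crim1 and Fyb are 7 of the 32285 genes in the UMI tables of single cells from fibrotic mouse lungs. They were chosen by their symbols, because in lung endothelial cells rich in Car4 and Ednrb they had been read as nearly absent under the control antibody and present under ipilimumab. The mice carried a human CTLA4 knock-in on a C57BL/6 background, were male and 12 weeks old, and all received 2 oropharyngeal doses of bleomycin (1.25 U/kg), which injures and scars the lung. From day 21 after the second bleomycin dose, 3 mice received control isotype IgG1 and 3 received ipilimumab, an antibody against human CTLA4. Each antibody was given in repeated doses of 5 mg/kg by intraperitoneal injection for 4.5 weeks. The right lung was digested with collagenase and DNase, and its cells were captured for 3' single-cell RNA-seq. Each library came from 1 mouse, and no lung without bleomycin was analysed here, so every difference by treatment is one between bleomycin-injured lungs.

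The lung's gas-exchange capillaries hold large, thin aerocytes, which express Car4 (carbonic anhydrase 4) and Ednrb (the endothelin B receptor), and general capillary cells, which act as progenitors and regulate vascular tone. Arteries and veins have endothelium of their own. Of the 7 genes, Sparcl1 encodes a secreted matrix glycoprotein of the SPARC family, Adamts1 a secreted protease that cleaves matrix proteoglycans, and Crim1 a transmembrane protein that binds bone morphogenetic proteins. Camk4 encodes a calcium/calmodulin-dependent kinase abundant in T cells, Fyb an adaptor protein downstream of the T cell receptor, and Lgals1 galectin-1, a lectin of many mesenchymal and immune cells. Ttc23l encodes a little-studied protein with tetratricopeptide repeats.

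Each library held 37666042 to 48612412 UMIs, and 3270 to 4362 cells per library were kept after calling cells, filtering and removing doublets. Pairs of libraries shared 0 to 9 cell barcodes. Ipilimumab replicate 1 stood apart: it had 22056 barcodes of 100 UMIs or more, against 4834 to 6230 in the other libraries, and 78.9% of its UMIs were in called cells, against 92.4% to 93.1%. Values are therefore given for each mouse where a result rests on this library. Clusters called endothelial-like held 1043 cells, and all 9 endothelial markers (Pecam1, Cdh5, Cldn5 and others) were found in them, at 10711 to 13765 CPM in sum per mouse (CPM, a gene's UMIs scaled to a fixed total of UMIs in the same cells). The members, Car4, Ednrb and 8 T cell and surfactant genes, among them Cd3e, Icos and Sftpc, were kept out of the clustering.

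The endothelial-like cells were split by a gate on the sum of Car4 and Ednrb UMIs. The 336 cells with 2 or more UMIs came as 51, 26 and 50 cells from the IgG1-treated mice and 108, 34 and 67 from the ipilimumab-treated mice. The 707 cells with fewer came as 122, 46 and 49 and as 218, 109 and 163. Cells past the gate were the deeper ones, with a median of 7031.5 against 2836 UMIs, and least so in ipilimumab replicate 1, with 2475 against 2001. Clustering separated a Car4- and Ednrb-rich cluster of 360 cells, of which 310 also passed the gate, while 26 cells passed the gate outside this cluster and 50 cells of it fell below the gate, 37 of them from ipilimumab replicate 1.

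Among the 5 members with enough counts to be fitted, Adamts1 and Crim1 differed most between cells past and below the gate, and their upstream sequences are given to show what the regions beside their start sites hold. Both are the 250 bases before the start site in RefSeq's GRCm38.p6 annotation, printed 5′ to 3′ on the gene's strand. Capitals mark matches on either strand to TATAAA or GGGCGG.
Adamts1, chr16:85803114-85803363, minus strand: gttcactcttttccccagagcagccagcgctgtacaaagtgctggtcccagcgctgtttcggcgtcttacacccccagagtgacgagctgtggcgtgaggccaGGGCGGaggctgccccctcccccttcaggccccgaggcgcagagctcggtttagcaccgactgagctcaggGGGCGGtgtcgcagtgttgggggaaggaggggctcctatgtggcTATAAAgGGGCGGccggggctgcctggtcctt
Crim1, chr17:78199998-78200247, plus strand: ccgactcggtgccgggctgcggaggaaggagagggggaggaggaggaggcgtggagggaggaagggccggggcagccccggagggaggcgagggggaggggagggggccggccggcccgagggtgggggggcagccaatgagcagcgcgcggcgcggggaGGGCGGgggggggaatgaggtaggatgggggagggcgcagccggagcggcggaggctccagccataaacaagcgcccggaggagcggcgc
The Adamts1 window held TATAAA 32 to 27 bases before the start site and 3 matches to GGGCGG, the letters of a Sp1-type GC box, of which 1 lay right beside the TATAAA match. The Crim1 window held 1 GGGCGG and no TATAAA. Among 32851 RefSeq windows of this length, 12.4% held TATAAA and 32.7% held GGGCGG. The windows were 65.6% and 77.6% G and C, more than 83.8% and 97.6% of all windows. The other motifs searched on both strands were GGAAGT (an Ets-type site, in 19.7% of windows), TGANTCA (AP-1, in 6.75%), TGACGTCA (a cyclic AMP response element, in 1.55%) and CACGTG (an E-box, in 6.02%), and neither window held them. None of the 6 motifs contains another. RefSeq windows were found for 4 of the 7 members, and those of Ttc23l and Fyb held no match to any motif.

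In the files' build (mm10), Sparcl1 lies on the minus strand of chromosome 5 (104079111 to 104113733), Adamts1 on chromosome 16 (85793827 to 85803113) and Crim1 on chromosome 17 (78200248 to 78376592). Lgals1 (78926725 to 78930465), Ttc23l (10500102 to 10558668) and Fyb (6522853 to 6663313) lie on chromosome 15, and Camk4 on chromosome 18. UMIs were counted per gene.

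The contrast by which the members were picked, in the Car4- and Ednrb-rich cluster, is given first as a description without a test. In IgG1-treated mice 1, 2 and 3, the 120 cells of the cluster held 0, 0 and 0 UMIs of Sparcl1, and in ipilimumab-treated mice 1, 2 and 3, the 240 cells held 25, 19 and 43. Camk4 was at 0, 0 and 0 against 17, 19 and 19 UMIs, and Lgals1 at 0, 0 and 0 against 9, 15 and 4. These counts are few, and 0 of 120 cells allows a share of cells with a UMI of up to 2.5%, counting error only. Ttc23l was at 0, 0 and 0 against 1, 0 and 4 UMIs, and Fyb at 0, 0 and 1 against 15, 28 and 16. Adamts1 and Crim1 were not off under IgG1: Adamts1 had 9, 1 and 9 against 46, 19 and 66 UMIs, and Crim1 had 3, 0 and 5 against 34, 5 and 20. Of all genes tested in this cluster, 1.03% were called (edgeR's quasi-likelihood test, adjusted p under 0.05 and log2 fold change over 0.3 in size), a share from which nothing is read about genes picked on the same contrast.

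The gate, which uses 2 genes in place of the whole profile, gave another picture for some members. In cells past the gate, Sparcl1 was not off under IgG1. It had 11, 12 and 0 UMIs in the IgG1-treated mice (29.0, 51.2 and 0 CPM) and 25, 20 and 53 in the ipilimumab-treated mice (43.4, 66.3 and 99.9 CPM), so that the groups overlapped. All 23 of the IgG1 UMIs were in the 13 IgG1 cells that passed the gate outside the cluster. They lay in few cells: 1 cell held 7 of the 11 in IgG1 replicate 1, and 2 cells held 6 each in IgG1 replicate 2. Of these 2, 1 also held 26 UMIs of fibroblast markers and 9 of pericyte and smooth muscle markers. What such other RNA adds to the Sparcl1 level was not tested. Adamts1 turned: it had 74, 101 and 26 UMIs under IgG1 (227 ± 191 CPM, mean ± SD, n = 3) and 62, 70 and 81 under ipilimumab (164 ± 63.1 CPM), lower on average under ipilimumab by less than the spread between mice. Crim1 did the same, with 41, 62 and 12 against 57, 24 and 42 UMIs (133 ± 122 and 85.9 ± 11.2 CPM). Again the cells outside the cluster carried the IgG1 counts, 65, 100 and 17 UMIs of Adamts1 and 38, 62 and 7 of Crim1. In IgG1 replicate 2, the 2 cells with 6 Sparcl1 UMIs each held 30 and 57 UMIs of Adamts1 and 27 and 22 of Crim1. In the cluster in place of the gate, the ipilimumab minus IgG1 difference of Adamts1 was 77.6 CPM, against −62.6 CPM past the gate. The latter was 39.6 CPM without IgG1 replicate 2 and 79.0 CPM after thinning cells to 1000 UMIs. For Crim1 the difference was 33.1 CPM in the cluster, −46.7 CPM past the gate and 19.4 CPM without IgG1 replicate 2.

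Camk4, Fyb, Lgals1 and Ttc23l were the members low or absent under IgG1 by the gate as well. Camk4 had 0, 0 and 0 UMIs against 15, 19 and 19 (0 against 41.6 ± 19.2 CPM). Fyb had 0, 0 and 1 against 13, 28 and 27 (0.692 ± 1.20 against 55.4 ± 35.4 CPM). Lgals1 had 1, 1 and 0 against 8, 15 and 6 (2.30 ± 2.15 against 25.0 ± 21.5 CPM). These 3 sets of counts did not overlap between the groups, and neither did those of Ttc23l, with 0, 0 and 0 against 5, 2 and 4 UMIs (7.62 ± 1.02 CPM under ipilimumab). For Camk4 and Ttc23l, 0 of 127 IgG1 cells allows a share of up to 2.36%. Past the gate, 0.0646% of genes tested were called, which were Camk4, S100a4, Laptm5 and Tyrobp. This contrast is nearly the one that chose the members, since 310 of the 336 cells past the gate are in the cluster. Nothing is therefore read from the call of Camk4, nor from members whose groups did not overlap. The share of all genes whose groups did not overlap past the gate was not counted. The number of genes called moved by over 1.5 times in 18 of 22 alternatives, and was 0 without cells holding a T marker UMI. S100a4, Laptm5 and Tyrobp are known for expression in leukocytes and are named after their values were seen. The plot of the members by gate and treatment shows the values of every mouse.

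**Figure D1:**
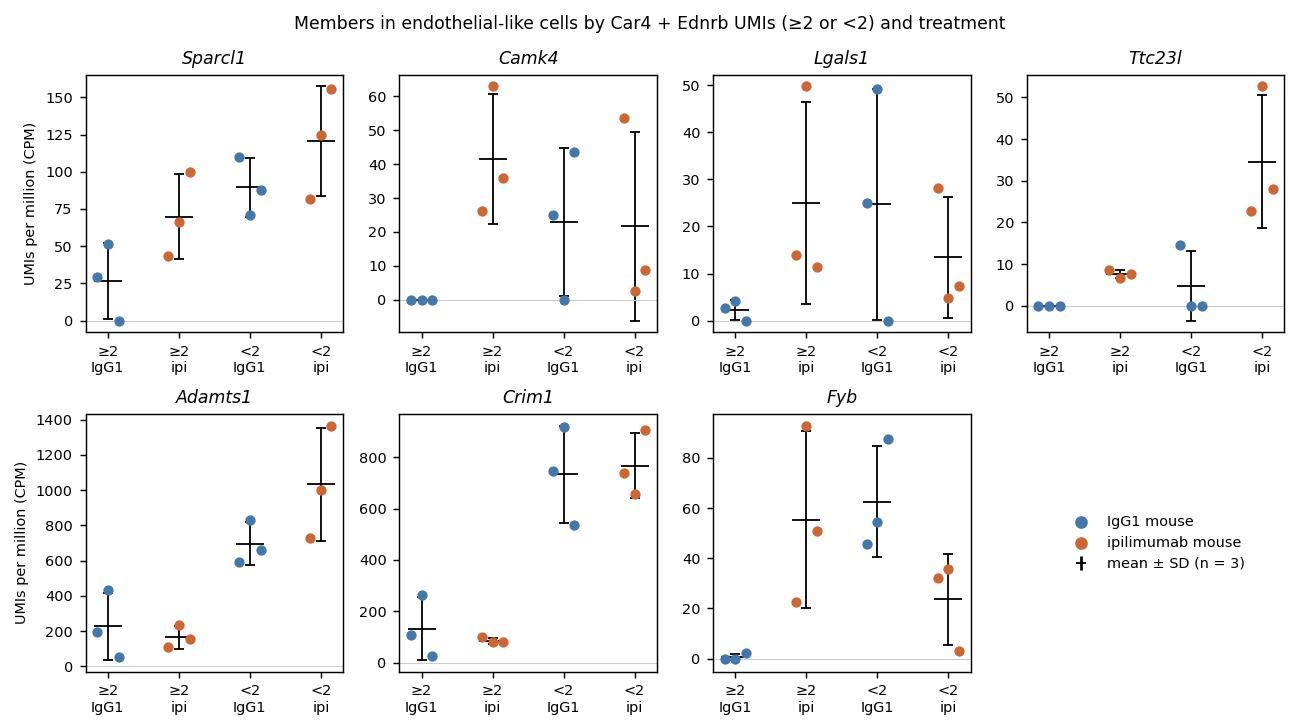
Each panel plots 1 member in CPM (linear axis) per mouse (points) in endothelial-like cells with 2 or more or fewer than 2 Car4 and Ednrb UMIs, by treatment, with the mean ± SD of 3 mice (black). Past the gate Camk4 and Ttc23l are at 0 in the 3 IgG1-treated mice, Sparcl1, Adamts1 and Crim1 overlap between groups, and Adamts1 and Crim1 are higher below the gate than past it.

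Below the gate the members were present in IgG1-treated mice. Camk4 had 12, 0 and 10 UMIs under IgG1 and 40, 1 and 6 under ipilimumab, and Fyb had 22, 10 and 20 against 24, 15 and 2. Lgals1 had 12, 9 and 0 against 21, 2 and 5. The groups overlapped for Camk4 and Lgals1. For Fyb every ipilimumab-treated mouse had a lower CPM (32.1, 35.9 and 2.96) than every IgG1-treated mouse (45.6, 54.6 and 87.5). This direction was opposite to that past the gate, but the IgG1 counts of Fyb lay in few cells. In IgG1 replicate 3, all 20 were in 1 cell with 68 T marker UMIs. In IgG1 replicate 1, cells with 15 and 5 Fyb UMIs had 16 and 38 T marker UMIs. In IgG1 replicate 2, cells with 6 and 4 Fyb UMIs had 0. The mean CPM below the gate was lower under ipilimumab than under IgG1 for all 3 (Camk4 21.6 ± 27.9 against 22.9 ± 21.9, Lgals1 13.4 ± 12.8 against 24.7 ± 24.6, Fyb 23.7 ± 18.03 against 62.6 ± 22.01). Sparcl1 had 53, 13 and 20 against 61, 52 and 105 UMIs (89.5 ± 19.6 and 120 ± 36.9 CPM), and its groups overlapped. Ttc23l was higher under ipilimumab, with 7, 0 and 0 against 17, 22 and 19 UMIs (4.84 ± 8.38 against 34.5 ± 15.9 CPM), and did not overlap. The share of all genes whose groups did not overlap below the gate was not counted either. Genes called were 0% below the gate (380 of 6075 at an unadjusted p under 0.05, and 2 called by DESeq2) and 0% in all endothelial-like cells (665 of 8150, and 25 called by DESeq2). At the gate itself, cells with exactly 2 UMIs (7, 1 and 2 IgG1 cells, 20, 3 and 6 ipilimumab cells) held 0 UMIs of Camk4 in every mouse, while cells with exactly 1 held 0, 0 and 0 against 3, 0 and 0. Sparcl1 had 2, 0 and 0 against 1, 1 and 15 UMIs at exactly 2 and 5, 0 and 0 against 8, 2 and 14 at exactly 1.

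The Camk4 UMIs past the gate came from few cells. Of 53 UMIs, 50 were in 3 cells, 1 in each ipilimumab-treated mouse, with 12, 19 and 19 UMIs, and the other 3 were in 3 cells of ipilimumab replicate 1. Without these 3 cells, the UMIs were 3, 0 and 0. The 3 cells had 9, 31 and 34 Car4 and Ednrb UMIs and 9, 8 and 9 of the 9 endothelial markers. They also held 23, 30 and 18 UMIs of 8 T cell markers (Cd3e, Cd3d, Cd3g, Trac, Trbc2, Cd2, Lck and Il7r), of which 5, 8 and 6 were found, and 3, 6 and 6 UMIs of Fyb. Their doublet scores were 0.187, 0.252 and 0.148, above the medians of endothelial-like cells in those mice (0.0836, 0.0960 and 0.0729) and below the lowest score of a removed doublet (0.278, 0.287 and 0.252).

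T cell markers past the gate were higher under ipilimumab, in large part through the same few cells. The T marker list summed to 5.28, 4.27 and 16.6 CPM under IgG1 and 76.3, 139 and 49.0 CPM under ipilimumab. In UMIs these were 2, 1 and 8 against 44, 42 and 26. The 3 cells with most Camk4 UMIs past the gate held 23, 30 and 18 of the latter. Another cell of ipilimumab replicate 2 held 10. Whether the groups differ without these cells was not tested. All 8 markers were found past the gate under ipilimumab, whereas under IgG1 4 of 8 were found and Cd3e, Trac, Trbc2 and Il7r were at 0. Cells with at least 1 T marker UMI numbered 2, 1 and 4 of 51, 26 and 50 under IgG1 and 18, 4 and 8 of 108, 34 and 67 under ipilimumab. Below the gate the order was not kept: the list summed to 129, 38.2 and 354 CPM under IgG1 and 158, 19.1 and 26.6 CPM under ipilimumab. In all endothelial-like cells, 114 of 122 Camk4 UMIs (93.4%) were in the 117 cells with a T marker UMI, which were 11.2% of the cells and held 15.2% of their UMIs. IgG1-treated mice had such cells too, below the gate. In IgG1 replicate 1, a cell with 8 Camk4 UMIs had 16 T marker UMIs and another with 4 had 38, and in IgG1 replicate 3 a cell with 9 had 68 T marker UMIs and 20 of Fyb. The most Camk4 UMIs in an endothelial-like cell, 25, were below the gate in ipilimumab replicate 1, beside 37 T marker UMIs.

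**Figure D2:**
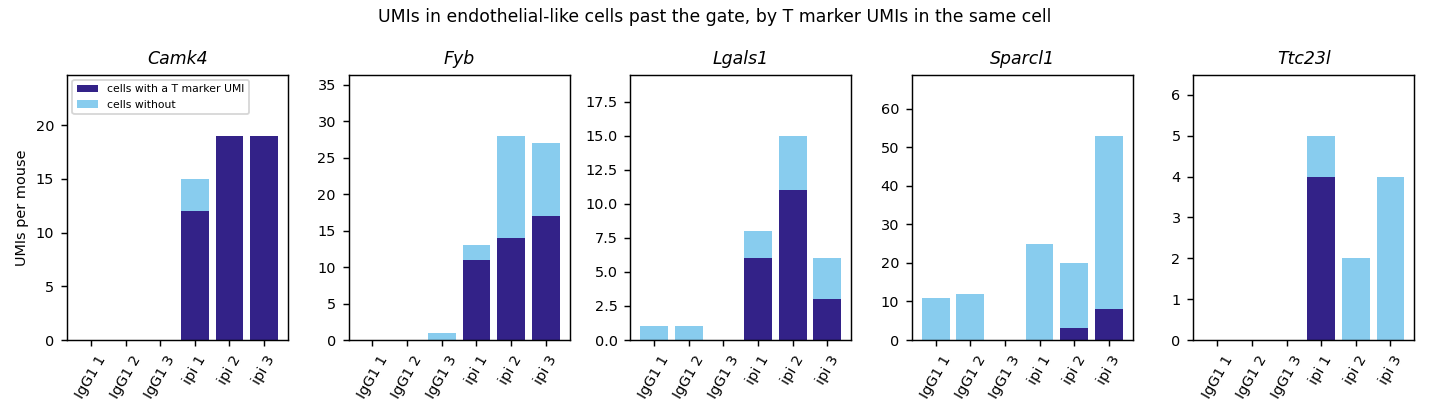
UMIs of 5 members per mouse (bars, linear axes from 0) in endothelial-like cells past the gate, divided into cells with at least 1 T marker UMI (dark) and cells without (light). Camk4 lies almost wholly in the dark part of the ipilimumab bars (50 of 53 UMIs) and Sparcl1 mostly in the light part.

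Camk4 UMIs past the gate were set against T marker UMIs. There were 53 Camk4 UMIs to 112 T marker UMIs in ipilimumab-treated mice, or 47.3 per 100, and T-like cells of the same mice had 43.5 per 100. With 0 Camk4 UMIs beside 11 of the T markers, the IgG1-treated mice had too few counts for a ratio, 8 of the 11 being Cd2. Below the gate the ratios were 14.7 under IgG1 and 32.6 under ipilimumab. Fyb past the gate had 60.7 per 100 T marker UMIs under ipilimumab against 29.0 in T-like cells, and Lgals1 had 25.9 against 11.1. Among cells of 3 or more T marker UMIs past the gate under ipilimumab, there were 57.5 per 100 of Camk4, 27.6 of Fyb and 18.4 of Lgals1, against 43.5, 28.9 and 11.03 in such T-like cells. When endothelial cells were instead defined per cell by at least 3 endothelial markers and 0 UMIs of Ptprc (the leukocyte antigen CD45), Epcam and Col1a2, the difference in Camk4 past the gate went from 41.6 to 0.683 CPM, in Fyb from 54.8 to 3.46 CPM and in Lgals1 from 22.7 to 5.13 CPM. Without cells holding a T marker UMI, an alternative chosen after seeing the data, the differences were 2.20, 27.6 and 6.90 CPM.

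Fyb and Lgals1 were less tied to T markers than Camk4. In all endothelial-like cells, 57.4% of Fyb UMIs and 63.8% of Lgals1 UMIs were in cells with a T marker UMI. The cell past the gate with most Fyb UMIs (13, ipilimumab replicate 2) held 0 T marker UMIs, as did one with 9 in ipilimumab replicate 3. A cell with 8 Fyb and 10 Lgals1 UMIs in ipilimumab replicate 2 held 66 UMIs of natural killer (NK) cell markers beside 10 of T markers, and its Lgals1 UMIs were 10 of the 15 of that mouse. Another, in ipilimumab replicate 3, held 11 Fyb UMIs and 56 UMIs of alveolar macrophage markers. It had 3 Car4 and Ednrb UMIs and lay outside the cluster. Alveolar macrophage-like cells held Car4 as well, at 186 CPM under IgG1 and 214 under ipilimumab. Whether such Car4 brought this cell past the gate was not tested. In all, 8 of 8 NK markers were found past the gate, at 2.64, 0 and 2.07 CPM in sum under IgG1 and 24.3, 239 and 1.89 CPM under ipilimumab. How much of the members' levels these other cell types account for was not tested.

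**Figure D3:**
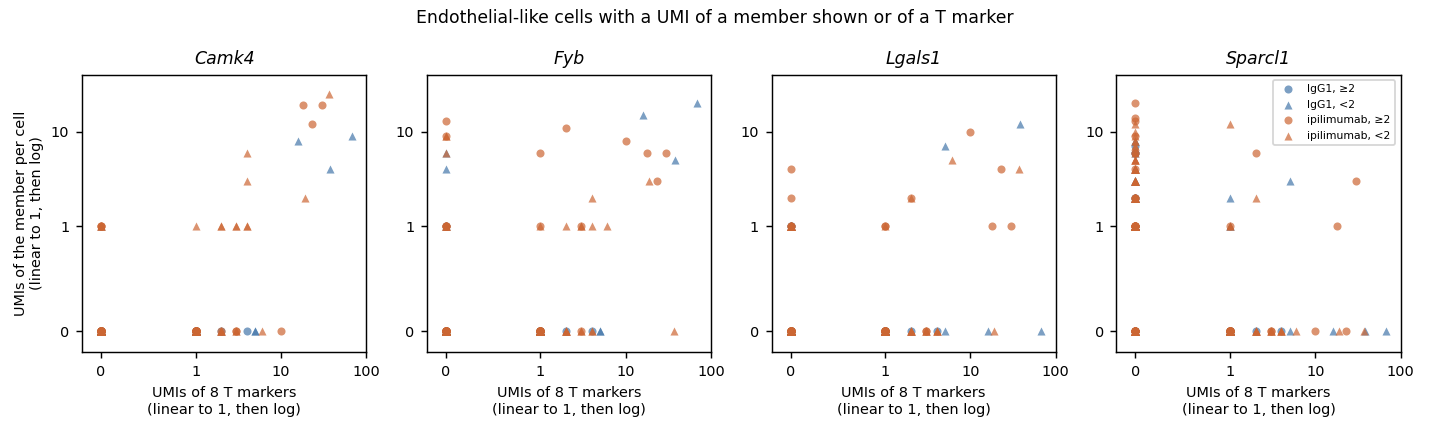
Each point is an endothelial-like cell with a UMI of a plotted member or of a T marker, with UMIs of 8 T markers on the x axis and UMIs of 1 member on the y axis (both linear to 1, then logarithmic), coloured by treatment and shaped by gate. Cells with many Camk4 UMIs lie to the right, among cells with many T marker UMIs, while most cells with many Sparcl1 UMIs lie at 0 T marker UMIs, and Fyb and Lgals1 cells lie in both places.

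Sparcl1 had no such tie: 34 of 425 UMIs (8.0%) were in cells with a T marker UMI, below the 15.2% of all UMIs that those cells held. The 3 cells past the gate with most Sparcl1 UMIs had 13, 14 and 20, 1 in each ipilimumab-treated mouse, and held 0 UMIs of 8 T markers and 0 of 8 fibroblast markers. Their doublet scores were 0.208, 0.129 and 0.180. Without the cell of most UMIs in each mouse, an alternative chosen after seeing the data, the difference in Sparcl1 past the gate was 20.6 CPM in place of 43.1. Fibroblast markers past the gate (7 of 8 found) came to 2.64, 120 and 2.07 CPM under IgG1 and 60.7, 3.32 and 3.77 CPM under ipilimumab, and pericyte and smooth muscle markers (8 of 8 found) to 10.6, 102 and 29.0 against 31.2, 16.6 and 26.4 CPM. In the 2 mice with enough cells, cells with a Sparcl1 UMI had more of the fibroblast list than cells without, by 537 against 27.8 CPM in ipilimumab replicate 1, the library that stood apart, and by 6.998 against 2.58 CPM in ipilimumab replicate 3, and the part of this in the Sparcl1 level was not tested. Without ipilimumab replicate 1, the difference in Sparcl1 past the gate was 56.4 CPM.

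Below the gate, Sparcl1 went with arterial genes. Cells with a Sparcl1 UMI had a higher sum of an arterial list (Gja5, Gja4, Hey1, Sox17, Bmx, Efnb2, Dkk2, Cxcl12, Fbln2 and Mgp) than cells without in 6 of 6 mice (mean 1906 against 935 CPM). They had a lower sum of a venous list (Vwf, Slc6a2, Vcam1, Nr2f2 and others) in 6 of 6 mice (378 against 1487 CPM), and a lower sum of T markers in 6 of 6 (33.7 against 142 CPM). Cells with a UMI of Adamts1 or Crim1 were instead higher for the venous list in 6 of 6 mice (1469 against 405 CPM and 1430 against 316 CPM). Ttc23l could be compared in 3 mice, and its cells had more of the venous list in 2 of them (mean 4308 against 932 CPM). The cell with most Ttc23l UMIs (12, ipilimumab replicate 2) had 483 venous-list UMIs. These are descriptions across cells of shared libraries, in which deeper cells have more chance of a UMI.

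The same split by UMIs was made past the gate. Cells with an Adamts1 UMI had less of an aerocyte list (Apln, Tbx2, Fibin, Prx, Emp2, Chst1, Kdr, Nrp1, Sirpa and Cyp4b1) than cells without in 5 of 5 mice with enough cells (7714 against 12005 CPM), and more of a general capillary list (Gpihbp1, Kit, Plvap, Aplnr, Cd93 and others) in 5 of 5 (4438 against 476 CPM). For Crim1 the values were 5381 against 12111 CPM and 5625 against 557 CPM, in the same direction in 5 of 5 mice. For Sparcl1, in the 2 mice with enough cells, the aerocyte list was at 4941 against 11340 CPM and the general capillary list at 4273 against 795 CPM.

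Sparcl1, Adamts1 and Crim1 were lower past the gate than below it in 6 of 6 mice. The choice of members used their near absence in the Car4- and Ednrb-rich cells of the IgG1-treated mice, which hold most of the cells past the gate, so this difference was partly set by the choice and is given as a description with no p. The fit compared the sums of UMIs within the 6 mice (edgeR's quasi-likelihood test, mouse as a block, Benjamini-Hochberg adjusted over 6189 genes), and it called 42.9% of all genes, 1249 higher and 1408 lower past the gate. Crim1 had a log2 fold change of −3.04 (SE 0.23), from 750 to 109 CPM on average. Adamts1 had one of −2.38 (SE 0.26), from 864 to 195 CPM, and Sparcl1 one of −1.29 (SE 0.34), from 105 to 48.3 CPM. In the ipilimumab-treated mice, where the members were chosen for being present, Adamts1 was at 108, 232 and 153 CPM past and 730, 1003 and 1366 CPM below the gate. Sparcl1 there was at 43.4, 66.3 and 99.9 against 81.7, 124 and 155 CPM. Camk4 had a log2 fold change of −0.18 (SE 0.75) and Fyb one of −0.59 (SE 0.73), both smaller than their errors. Lgals1 (31 UMIs past and 49 below the gate) and Ttc23l (11 and 65 UMIs, lower past the gate in 4 mice and at 0 on both sides in 2) did not pass the filter on low counts, so 5 of 7 members were fitted.

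**Figure D4:**
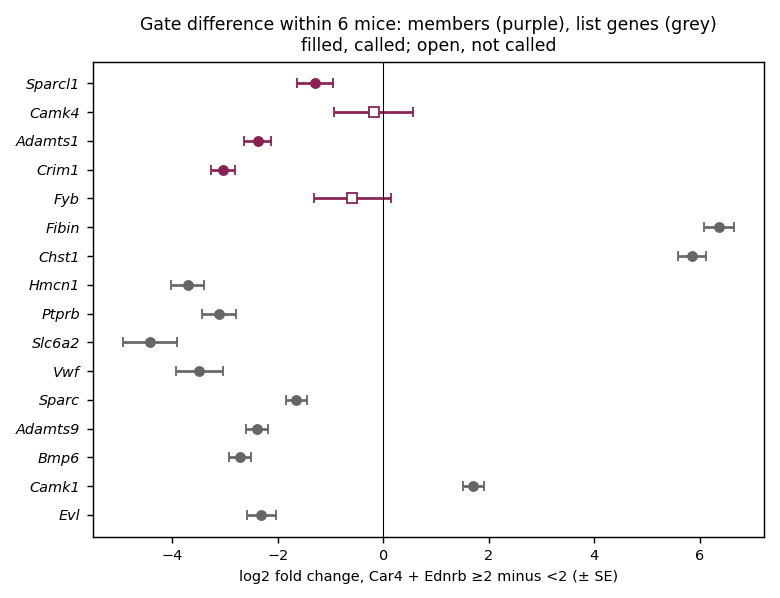
Log2 fold changes (points, bars ± SE) between endothelial-like cells past and below the gate in 6 mice, for the 5 members fitted (purple) and 11 genes of the lists (grey), with filled points for called genes. Nothing is read from the fill of the members, because the choice of members partly set this difference. Crim1, Adamts1 and Sparcl1 lie left of 0 with the general capillary genes (Hmcn1, Ptprb) and venous genes (Slc6a2, Vwf), the aerocyte genes Fibin and Chst1 lie right of 0, and the bars (SE) of Camk4 and Fyb cover 0.

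The subtype lists showed what the gate divided. All 10 aerocyte genes were higher past it, among them Fibin (log2 fold change 6.36), Chst1 (5.85), the apelin gene Apln (5.64) and the transcription factor gene Tbx2 (4.95). All 10 general capillary genes were lower, as with Hmcn1 (−3.71), Ptprb (−3.11) and Kit (−3.02). Of the arterial list 5 of 10 were tested and 5 were lower (Cxcl12 −3.48, Gja4 −2.89), and of the venous list 5 of 8 were tested and 5 were lower (the norepinephrine transporter gene Slc6a2 −4.42, Vwf −3.48). The median log2 fold changes were 4.28, −2.66, −2.04 and −3.003, against 0.022 for all genes tested.

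The members' relatives were found on both sides of the gate, as were genes at large. The fit called 42.9% of all genes tested, 1249 higher and 1408 lower past the gate. Nothing is therefore read from the counts of relatives called, which are given as a description. Sparc, the founding gene of the SPARC family, was lower past it (−1.65), and 1 of 2 tested genes of 7 in the family list passed. Of ADAMTS genes 2 of 3 tested were lower, Adamts9 (−2.39) and Adamts6 (−1.15), and Adamts10 (0.33) did not pass. Among genes of bone morphogenetic protein signalling, to which Crim1 belongs, 4 of 7 were higher, including the target genes Id1 (1.55) and Id3 (0.91) and the receptor gene Acvrl1 (0.90), and 1 was lower, the ligand gene Bmp6 (−2.72). Calmodulin kinases went both ways, with Camk1 (1.71) and Camk2g (0.65) higher and Camk2d (−0.78) and Camk1d (−0.41) lower, of 5 tested. Galectin genes Lgals8 (−0.88) and Lgals9 (−0.87) were lower and Lgals3 (−0.53, adjusted p = 0.31) did not pass. Of 5 tested partners of Fyb, 3 were lower, Evl (−2.31), Fyn (−0.88) and Skap2 (−0.67), and 1 was higher, Nck1 (0.67). Ttc23, the paralog of Ttc23l, was higher (0.89). Of 14 immediate early genes, which respond to dissociation, 4 were higher and 5 lower, with Atf3 (−1.13) and Egr1 (−1.03) the most changed.

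Among cell classes, endothelial-like cells were a major source of Adamts1 and Ttc23l, and a minor one of the others. They held 53.4% of Adamts1 UMIs in cells, 36.9% of Ttc23l, 14.5% of Crim1, 7.41% of Sparcl1, 0.215% of Fyb, 0.167% of Camk4 and 0.0972% of Lgals1. Sparcl1 was highest in fibroblast-like cells (1195 ± 255 CPM, mean ± SD, n = 6), then in pericyte- and smooth muscle-like cells (726 ± 203, n = 5) and endothelial-like cells (76.4 ± 35.4, n = 6), and the ranges over mice of these 3 did not overlap. Camk4 was highest in T-like cells (1402 ± 255 CPM) and at 19.7 ± 14.1 CPM in endothelial-like cells, beside 2.19 ± 0.868 in B-like cells. It was at 14.4 ± 18.9 CPM in neutrophil-like and 14.2 ± 11.8 CPM in fibroblast-like cells, whose ranges overlapped. T-like cells held 80.5% of all Camk4 UMIs and 56.2% of those of Fyb. Fyb had overlapping levels in nonclassical monocyte-like (1010 ± 52.0 CPM), T-like (1010 ± 69.8) and plasmacytoid dendritic cell (pDC)-like cells (1004 ± 277), and was at 31.8 ± 13.9 CPM in endothelial-like cells.

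Lgals1 was higher in nearly all other classes than in endothelium. It led in pDC-like (1596 ± 286 CPM, n = 4), cycling (1376 ± 341) and NK-like cells (1266 ± 196), whose ranges overlapped, and endothelial-like cells came 17th of 19 classes (15.6 ± 9.59 CPM). Adamts1 was at like levels in pericyte- and smooth muscle-like (566 ± 173 CPM), endothelial-like (541 ± 208) and fibroblast-like cells (446 ± 58.6), with overlapping ranges. Crim1 was widespread, with overlapping ranges in pericyte- and smooth muscle-like (675 ± 451 CPM), ciliated (444 ± 42.2) and endothelial-like cells (437 ± 132), and with 26.8% of its UMIs in T-like cells. Ttc23l was found in alveolar type 2 (AT2)-like epithelial cells (29.8 ± 24.9 CPM, n = 5) and endothelial-like cells (12.9 ± 12.9 CPM), with overlapping ranges, and at 1.70 CPM or less in other classes with 4 or more mice. Over all cells it had 28, 8 and 10 UMIs under IgG1 and 46, 46 and 68 under ipilimumab (0.750, 0.192 and 0.299 against 1.29, 1.09 and 1.59 CPM). Outside endothelium it had 21, 8 and 10 against 24, 22 and 45 UMIs, where the CPM (0.576, 0.194 and 0.305 against 0.698, 0.532 and 1.08) overlapped.

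**Figure D5:**
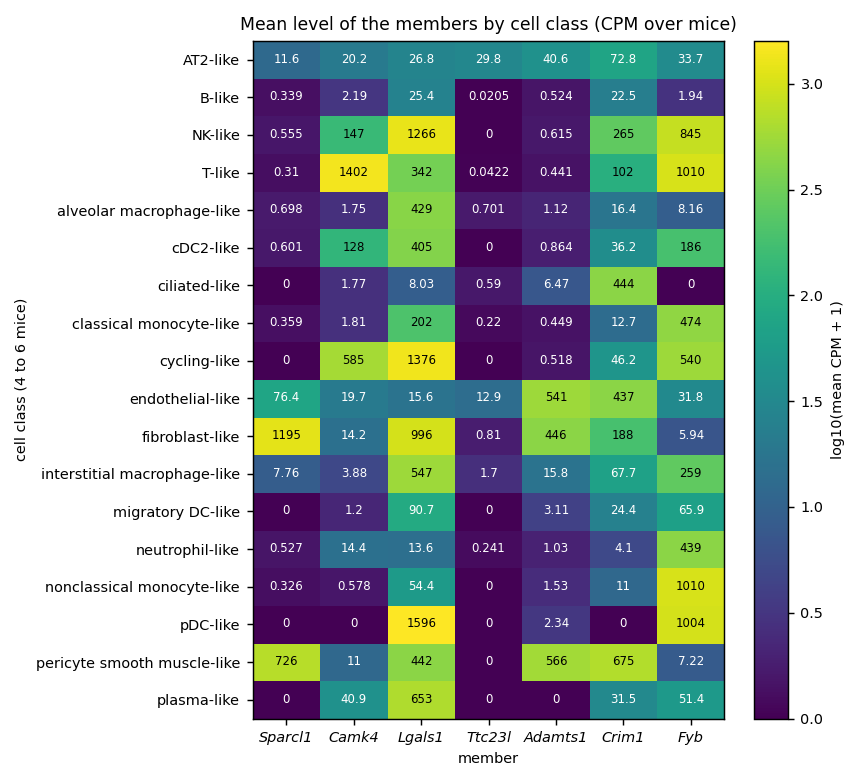
Mean CPM over mice of each member (columns) in each cell class with sums from at least 4 mice (rows), printed in each field and coloured by log10(mean CPM + 1). Sparcl1 is strongest in the fibroblast-like row (1195), Camk4 in the T-like row (1402), and Lgals1 is low in the endothelial-like row (15.6).

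The genes most like each member over 19 class means (Pearson's r of log2(CPM + 1), a description over classes that share libraries, among 14741 genes) follow. For Sparcl1 these were the collagen-processing gene Pcolce2 (r = 0.994), Slit3 (0.985) and Nfatc4 (0.973). For Camk4 they included the adaptor gene Skap1 (0.960) and Cd3d (0.951), and for Fyb they were Bend4 (0.884), Ly6c2 (0.872) and Gm2245 (0.870). For Adamts1 they were Grb10 (0.979), Mill2 (0.973) and Dlc1 (0.965), for Crim1 Atn1 (0.913), Tnks1bp1 (0.904) and St5 (0.867), for Ttc23l Tead4 (0.928), Gm15541 (0.914) and Afap1l1 (0.913), and for Lgals1, with the loosest likeness, Eif5a (0.834), Slc7a5 (0.809) and Tradd (0.797).

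In T-like cells, the main source of Camk4 and Fyb, no member passed the test of ipilimumab against IgG1. Camk4 was at 1232, 1569 and 1106 CPM under IgG1 and 1381, 1307 and 1815 CPM under ipilimumab (log2 fold change 0.20, SE 0.14, adjusted p = 0.73). Fyb differed by −0.01 (SE 0.09, adjusted p = 0.98) and Lgals1 by 0.37 (SE 0.23, adjusted p = 0.69), and Crim1 by 0.00012 (SE 0.088, adjusted p = 1.0). Lgals1 was called when IgG1 replicate 2 was left out (0.78, adjusted p = 0.00883) and under no other alternative run. Of 11687 genes tested in T-like cells with edgeR, 0% were called (1048 at an unadjusted p under 0.05, 0 of the 4 members among them), and DESeq2 called 70.

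In epithelium-like cells Lgals1, Ttc23l, Sparcl1 and Camk4 were near 0 under IgG1, in very few cells. These were 19, 9 and 12 cells under IgG1 and 207, 23 and 29 under ipilimumab, 207 of them from the library that stood apart. AT2-like cells made up 10, 8 and 3 of them under IgG1 and 159, 14 and 16 under ipilimumab, and the rest were ciliated. Median depth was 13790.5 UMIs under IgG1 and 1224 under ipilimumab. The mix of cells and the depth thus differed between the groups. Lgals1 had 0, 0 and 0 UMIs against 30, 14 and 32, Ttc23l 1, 0 and 0 against 22, 15 and 23, Sparcl1 0, 0 and 0 against 19, 2 and 6, and Camk4 1, 0 and 0 against 18, 0 and 31. For Lgals1 and Sparcl1, 0 of 40 cells allows a share of up to 7.5%. Of the 5 members tested, 0 were called, and Lgals1 and Ttc23l had an unadjusted p of 0.00067 and 0.00055 and an adjusted p of 0.44 each. Both were called when no filter on low counts was used. In these cells 0.028% of genes were called, Plcb1 and Chil3, and DESeq2 called 9.

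In 15 further tests, 1 in each class with enough cells, 51 tests of members gave 1 call. Camk4 was lower under ipilimumab in plasma-like cells (log2 fold change −4.12, SE 1.07, adjusted p = 0.046), where it had 33 and 16 UMIs in 2 IgG1-treated mice and 2 and 0 in 2 ipilimumab-treated mice. The call was lost with DESeq2, without IgG1 replicate 1 and without ipilimumab replicate 3, and 9.38% of genes were called in that class. Classes with calls among all genes were otherwise ciliated (0.0156%, Lyz2) and classical monocyte-like cells (0.015%, G0s2), and in the other 12 classes 0% were called with edgeR (93 to 810 genes each at an unadjusted p under 0.05). In fibroblast-like cells, the main source of Sparcl1, that gene was at 1186 CPM under ipilimumab and 1205 under IgG1 (log2 fold change −0.04, SE 0.20, adjusted p = 0.98). Crim1 there was at 256 against 120 CPM (log2 fold change 1.09, SE 0.24, unadjusted p = 0.00063, adjusted p = 0.31).

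Free RNA, read from barcodes of at most 100 UMIs, held all members. Sparcl1 was at 24.0, 22.5 and 36.6 CPM under IgG1 and 78.3, 25.9 and 42.5 under ipilimumab (exact two-sided permutation test, p = 0.2). Camk4 was at 88.6, 98.97 and 117 against 107, 114 and 173 CPM (exact permutation p = 0.3), Lgals1 at 315, 417 and 260 against 337, 403 and 386 CPM (exact permutation p = 0.5) and Fyb at 138, 126 and 195 against 185, 161 and 155 CPM (exact permutation p = 0.6). For these 4 the groups overlapped, and each mean was higher under ipilimumab by less than the larger of its 2 SDs. Adamts1 (35.8 ± 9.72 against 67.8 ± 20.3 CPM, exact permutation p = 0.2, n = 3) and Crim1 (42.8 ± 5.30 against 49.0 ± 6.51 CPM, exact permutation p = 0.3, n = 3) overlapped as well. Ttc23l had 0, 0 and 0 UMIs under IgG1 and 2, 4 and 5 under ipilimumab, the smallest p that 3 mice against 3 allow (exact permutation p = 0.1). After Benjamini-Hochberg adjustment over the 7 members the exact permutation p was 0.42 to 0.60. Of the 7 members 1 did not overlap between groups, against 8.92% of 12765 genes.

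Set beside the counts in cells, free RNA past the gate would have come to 0.867, 0.519 and 3.88 UMIs of Camk4 under IgG1 and 4.66, 1.02 and 2.36 under ipilimumab, from the estimated share of free RNA in those cells (2.24% to 7.58% of UMIs). The counts were 0, 0 and 0 and 15, 19 and 19. Of the latter, 12, 19 and 19 lay in a single cell of each mouse, beside 23, 30 and 18 T marker UMIs. The totals under ipilimumab thus do not give the level in the other cells past the gate. For Lgals1 the estimates were 3.08, 2.19 and 8.60 against 14.7, 3.60 and 5.27, with counts of 1, 1 and 0 and of 8, 15 and 6. For Fyb they were 1.35, 0.661 and 6.44 against 8.07, 1.44 and 2.11, with counts of 0, 0 and 1 and of 13, 28 and 27. For Sparcl1 they were at most 3.42 and for Ttc23l at most 0.0278 in any mouse. The estimates were thus under the counts for Sparcl1 and Ttc23l under ipilimumab in every mouse, and above the counts of Lgals1 in 4 of the 6 mice. In every IgG1-treated mouse they were above the counts of Camk4, Lgals1 and Fyb. The share of free RNA was read from UMIs of B cell, neutrophil and alveolar macrophage markers in those cells, all taken as free RNA. A barcode that also held a cell of these types would raise it.

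Shares of cells with a UMI were set beside those in B-like cells, which carry little Camk4 and Sparcl1. In B-like cells, 0.831% of cells under IgG1 and 1.04% under ipilimumab held a Camk4 UMI at median depths of 5612 and 5586 UMIs, against 1.16% and 3.004% of endothelial-like cells at 4726 and 3279 UMIs. Thinned to 1000 UMIs per cell, these were 0.110% and 0.343% against 0.654% and 1.19%, with 38 IgG1 and 113 ipilimumab endothelial-like cells left out as shallower. All shares here pool the cells of the mice in a group. Endothelial-like cells with a Camk4 UMI numbered 0, 0 and 0 past the gate and 2, 0 and 2 below it under IgG1. Under ipilimumab they numbered 4, 1 and 1 past the gate and 13, 1 and 1 below it. Most of the latter thus came from ipilimumab replicate 1, the library that stood apart. Some other classes held Camk4 UMIs in as many cells as endothelium or more. These were 7.63% and 6.08% of fibroblast-like, 2.94% and 3.92% of pericyte- and smooth muscle-like and 2.5% and 5.02% of epithelium-like cells. The share in endothelial-like cells was thus not particular to them. For Sparcl1, 0.284% and 0.145% of B-like cells held a UMI, against 13.1% and 14.4% of endothelial-like cells (5.88% and 7.51% after thinning). Lgals1 was found in fewer endothelial-like cells (1.74% and 4.58%) than B-like cells (7.44% and 6.56%), and after thinning in 0.654% and 1.71% against 1.45% and 1.37%. Whether B-like cells carry Lgals1 of their own was not tested. Ttc23l was in 0% and 0.0242% of B-like cells and in 0.872% and 5.01% of endothelial-like cells, or 0% and 1.71% after thinning. Past the gate, at median depths of 8081 and 5772 UMIs, the shares were 3.94% and 11.005% for Sparcl1, 0% and 2.87% for Camk4 and 0.787% and 6.70% for Fyb.

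The share of endothelial-like cells past the gate was lower under ipilimumab by an amount the test did not separate from the spread between mice. It was 29.5%, 36.1% and 50.5% under IgG1 and 33.1%, 23.8% and 29.1% under ipilimumab. The means were 38.7 ± 10.7% and 28.7 ± 4.69% (SD, n = 3, difference −10.02 percentage points, exact two-sided permutation test, p = 0.2, where 0.1 is the smallest possible). Thinned to 1000 UMIs, the shares were 24.1%, 29.5% and 41.4% against 22.9%, 18.8% and 20.1%, and so no longer overlapped. Sparcl1, Adamts1 and Crim1 were lower past the gate, and the part of this share in their levels over all endothelial-like cells was not tested. Over all these cells, Sparcl1 was at 74.3, 59.9 and 28.1 CPM under IgG1 and 65.0, 100 and 131 CPM under ipilimumab.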

How the data were processed

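The deposited data are UMI counts per gene and barcode for 6 libraries, from which the authors removed no barcode. Per the labels the reads were processed with Cell Ranger 7.0.0 on mm10, while the file headers name Cell Ranger 4, so the version is uncertain. Cells were called by a UMI threshold and, from 500 UMIs, by a profile test against free RNA (false discovery rate 0.01). Cells with under 200 genes or over 10% mitochondrial UMIs were left out. Doublets were removed with simulated pairs, 2 per cell, as a share of 0.8% per 1000 cells. Cells were clustered (2000 variable genes, 10 components, 20 neighbours, Leiden resolution 0.8, leidenalg 0.10.2, Python 3.11.15) without the members, the gate genes and 8 further genes, and named "X-like" from marker lists, so names may differ from the study's.

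Sums of UMIs over the cells of a class in a mouse were tested with edgeR 4.0.16 (R 4.3.3, TMM, filterByExpr, quasi-likelihood test), with calls at an adjusted p under 0.05 and a log2 fold change over 0.3 in size. DESeq2 1.42.0 was an alternative. Fits were tested on simulated data. Sums needed 5 cells. Few cells of a class in a mouse limit precision, and intervals and limits at 0 cover counting error only. Named genes were the members, Car4 and Ednrb, up to 4 of each list (called genes with the greatest change first, then by UMIs) and the 3 genes most like each member, of which 1 is not reported here. The members, lists and tests were chosen with earlier results of these data known. Free RNA was read from barcodes of at most 100 UMIs.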

Additional observations from a re-analysis of the deposited data

How the results depend on the processing

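Up to 22 alternatives were run for each result, and those on leaving out T marker cells or the cell of most UMIs and on the cluster in place of the gate were chosen after seeing the data. The lower levels of Sparcl1, Adamts1 and Crim1 past the gate kept their direction under all 20, 21 and 21 alternatives that gave a value (log2 fold changes −1.75 to −0.96, −4.01 to −1.82 and −4.84 to −1.96). Sparcl1 had too few counts after thinning. Genes called by the gate numbered 637 after thinning, against 2657, a step that leaves fewer UMIs. Camk4 there was 0.13 at resolution 0.4 and −1.004 to 0.31 with 1 mouse left out.

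With no filter on low counts, which adds genes to the test, 425 genes were called in T-like cells and 175 in epithelium-like cells. Those called were 217 in all endothelial-like cells, 148 past the gate and 98 below it. Tests of members in the other classes, each of 1 member in 1 class, gave 7 calls without the filter and 1 with it. These calls need not be of 7 different members. The share of all genes called in those classes without the filter is not given here. In the same order, DESeq2 called 70, 9, 25, 2 and 2 genes and 0 members. With doublets kept, 1, 2, 1, 0 and 4 genes were called. The calls past the gate, 4 in number, were also 0 by UMI threshold alone, with 30 components, with endothelial cells taken by UMI gate, with free RNA subtracted, with the gate at 1 or 3 UMIs and without T marker cells, and they were 59 in the cluster. In epithelium-like cells 0 genes were called by UMI threshold alone and 1 with 30 components. With 1 mouse left out, 0 to 185 genes were called in T-like cells (185 without IgG1 replicate 2), 0 to 2 in epithelium-like cells, 0 to 1 in all endothelial-like cells, 0 to 11 past the gate and 0 to 3 below it, and 0 to 1 members in the other classes. In free RNA, 2 members did not overlap between groups by barcodes ranked 45000 to 90000, and 1 to 4 with 1 mouse left out. The cause of these changes was not tested.

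In T-like cells the change of Crim1, near 0, was −0.094 by UMI threshold, −0.070 and −0.099 at resolutions 0.4 and 1.6, −0.044 with 30 components, −0.0014 with RLE factors, −0.0032 with no filter and −0.0017 with DESeq2, and −0.062 to 0.076 with 1 mouse left out. That of Fyb was 0.00062 by UMI threshold, 0.017 with doublets kept, 0.0068 and 0.029 at these resolutions, and −0.096 to 0.038 with 1 mouse left out. Neither was called in any of these.

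The replicate numbers did not pair the mice: the correlations of same-numbered mice were −0.160 to 0.067 in T-like, −0.193 to 0.009 in endothelial-like and −0.085 to 0.070 in epithelium-like cells. With the replicate number as a block, 3 genes were called in T-like, 0 in epithelium-like and 20 in endothelial-like cells past the gate, and 0 members in the other classes, where plasma-like cells could not be fitted. Mice correlated best with their own number for 1 of 3 numbers in T-like cells and for 0 of 3 in the other classes compared. Few cells in a mouse, 26 past the gate and 9 epithelium-like at the lowest, limit the counts.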
